A study of Rattus norvegicus with 2 samples.

Results

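The genes described here are 10 that encode enzymes able to cut the extracellular matrix of the meniscus and their tissue inhibitors. They are the matrix metalloproteinases Mmp2, Mmp3, Mmp13 and Mmp14, the aggrecanase-type proteases Adamts1, Adamts4 and Adamts5, and the inhibitors Timp1, Timp2 and Timp3. They were picked out by symbol, without a threshold on their values but with earlier results of these data known. All 10 were present once among the 25399 genes of the deposited matrices. The rat meniscus is the fibrocartilage pad of the knee. Of 2 single-cell libraries, 1 came from meniscus labelled aged and 1 from meniscus labelled young. The labels give no age in time units, strain, sex, treatment or number of animals, so each difference below is one between these libraries. The tissue had been digested with protease and collagenase P, strained and sorted for viable cells before 3' capture on the 10x platform.

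Matrix metalloproteinases are zinc enzymes made as inactive precursors. Collagenases such as Mmp13 cut fibrillar collagen, the stromelysin Mmp3 cuts proteoglycans and activates other precursors, and the membrane-bound Mmp14 cuts collagen at the cell surface and activates Mmp2, a gelatinase. Adamts4 and Adamts5 cleave aggrecan, the large proteoglycan of cartilage, and Adamts1 cuts aggrecan and versican. TIMPs bind the active site of these enzymes, Timp3 stays in the matrix and inhibits ADAMTS enzymes as well, and Timp2 also takes part in the activation of the Mmp2 precursor by Mmp14.

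Only 534 of 6085 aged and 204 of 8773 young cells that passed the filters were stromal, that is, held no count of the leukocyte gene Ptprc and met 1 of the following thresholds in turn. Col2a1-rich cells had at least 10 unique molecular identifiers (UMIs, counts of captured RNA molecules) of this cartilage collagen, Chad-rich cells at least 10 of chondroadherin, Postn-rich cells at least 5 of periostin and Dcn-rich cells at least 5 of decorin. The young library held 112 Col2a1-rich, 17 Chad-rich, 54 Postn-rich and 21 Dcn-rich cells. The aged library held 0, 33, 24 and 477. Median depth per stromal class was 5813 to 6800 UMIs in the aged and 12283 to 18464 in the young library. Of 8 fibroblast markers 5 to 8 had counts in every stromal class, where the endothelial markers Cdh5 and Emcn were at 0. Of 8 chondrocyte markers 7 or 8 had counts in Chad-rich and Col2a1-rich cells, at a summed 21941 to 43342 CPM. Aged and young Postn-rich cells had counts of 2 and 7 of them, and Dcn-rich cells of 5 and 6, at 1431 to 4660 CPM. The 21 young Dcn-rich cells were mixed: 2 held 11388 of the class's 11390 counts of the osteoblast gene Bglap, and 1 had 10 or more summed counts of the mural genes Rgs5, Acta2 and Myh11. Most cells of both libraries were leukocytes, and 18 barcodes occurred in both libraries, none of them stromal in either.

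These classes were compared by the UMIs of a gene per 1000000 UMIs (CPM), summed over their cells. The ratio of CPM, aged over young, is expressed in log2 units, beside an exact conditional binomial 95% interval for counting error alone. With 1 library per age no test of age was possible. A ratio was formed for classes of at least 20 cells in each library, which leaves out Col2a1-rich and Chad-rich cells, and a gene was assessed at 20 or more summed counts. Because capture is from the 3' end and depends on the gene, values are compared between cells and not between genes.

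RefSeq promoter windows of build GRCr8 were matched for 7 of the 10 genes, and the 250 bases before the start site were searched on both strands for TGAGTCA, the site known for AP-1, the dimer of Fos and Jun proteins. It was found in Mmp3, with its first base 71 bases before the start, and, read from the opposite strand, in Mmp13, 66 bases before it, and in none of the other 5 windows. Of 33469 promoter windows in the table, 4.05% held it. Both also held TATAAA on the coding strand, at 32 and 47 bases, a sequence found in 8.06% of windows. The related TGAGTAA, present in 2.38% of windows, was found in Timp1 at 108 bases. Mmp3 also had it, at 144 bases, outside the stretch printed. Mmp3 and Mmp13 lie close together at chr8:12925161-12925280 (plus strand) and chr8:12782709-12782828 (plus strand) for the stretches printed, and Timp1 at chrX:3771123-3771292 (minus strand). The stretches are shown because Mmp3 and Mmp13 share the motif and the AP-1 genes were measured in the same cells. Capitals mark the AP-1 and related motifs and, nearer the start, the TATA motif.
Mmp3: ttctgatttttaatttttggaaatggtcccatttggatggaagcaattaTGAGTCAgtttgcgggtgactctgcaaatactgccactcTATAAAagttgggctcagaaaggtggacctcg
Mmp13: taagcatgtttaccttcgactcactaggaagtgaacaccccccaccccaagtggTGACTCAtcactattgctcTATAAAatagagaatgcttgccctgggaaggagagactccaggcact
Timp1: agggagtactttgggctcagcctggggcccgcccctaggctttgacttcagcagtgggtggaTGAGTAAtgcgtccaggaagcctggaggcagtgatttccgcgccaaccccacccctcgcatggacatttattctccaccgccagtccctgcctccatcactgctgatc
A match of letters does not show that a factor was bound in these cells. The motifs searched do not overlap in the printed stretches.

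All but 1 of the genes were mainly stromal in both libraries. Between 64.4% and 91.1% of a gene's UMIs lay in the 4 stromal classes, except for Adamts4 in the aged library, where 12 of 60 UMIs did. B lineage cells, taken here as cells with at least 2 counts of Cd79b and none of the gates above, gave the level that free RNA can reach. There Mmp2 had 2.33 CPM in the aged and 1.98 in the young library, Timp1 had 3.15 and 0.988, and Mmp13 and Adamts4 had 0 counts. Timp2 was highest there, at 14.0 and 4.20 CPM. Mmp3 had 7.11 and 1.24 CPM, with 50 of the 61 aged counts in 1 cell.

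**Figure D1:**
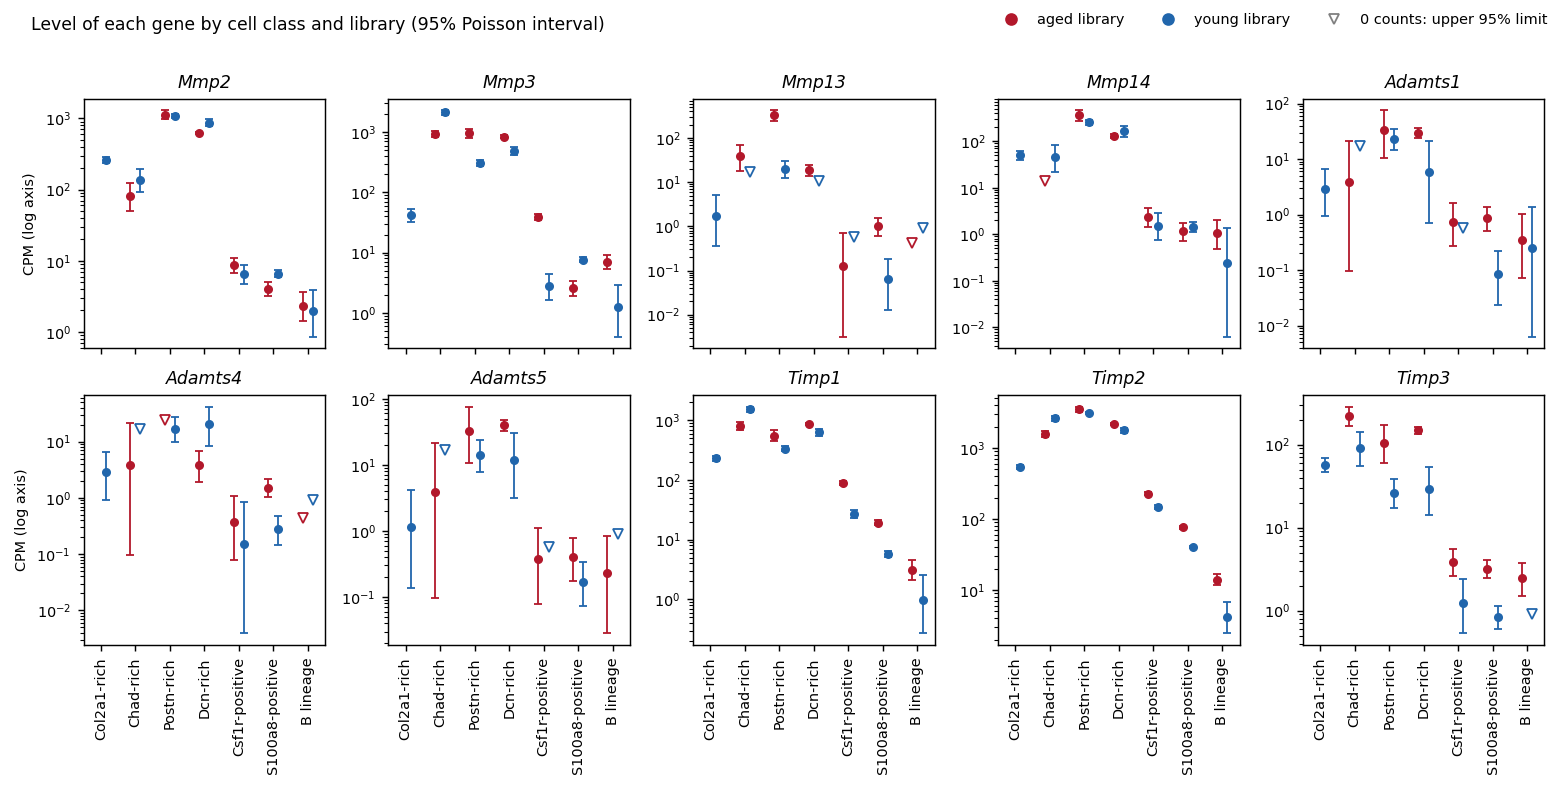
Level of each of the 10 genes (CPM, log axis) by cell class in the aged (red) and young (blue) library; points are class sums, bars are 95% Poisson intervals and open triangles mark the upper limit where no count was seen. Mmp2 and Mmp14 were highest in Postn-rich cells of both libraries, and the 3 TIMPs kept a stromal level above that of the leukocyte classes in every panel.

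Mmp3, the stromelysin, stood higher in aged Dcn-rich and Postn-rich cells by their summed counts, and few cells carried those counts. In Dcn-rich cells its level was 846 CPM in the aged library (2462 counts, 95% interval 813 to 880) and 488 CPM in the young (167 counts, 417 to 568). The log2 ratio was 0.79 (0.57 to 1.03). The share of cells with at least 1 Mmp3 UMI after thinning each cell to 2000 UMIs was 30.4% (134 of 441 cells) in aged and 33.3% (7 of 21) in young cells. The Clopper-Pearson intervals of these shares, 26.1 to 34.9 and 14.6 to 57.0, overlap, and the mean of per-cell CPM gave a log2 ratio of -0.19. In the aged class 17 cells carried 50% of the counts, and in the young class 2 did. Without the top cell of each library the levels were 761 and 352 CPM and the ratio 1.11, the highest of the alternatives.

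In Postn-rich cells Mmp3 stood at 960.2 CPM in aged and 312 in young cells, with a ratio of 1.62 (1.33 to 1.91). A single aged cell held 94 of the 147 counts, and without the top cell of each library the levels were 358 and 246 CPM and the ratio 0.54. The Chad-rich cells are given side by side only. They had 929.99 CPM in the aged and 2124 in the young library, where 359 of 465 counts lay in 1 cell. Without the top cell of each the levels were 600.3 and 548.5 CPM. That young cell also held 164 of the 336 Timp1 counts of its class and 201 counts of the chemokine Ccl2. Col2a1-rich cells of the young library were low in Mmp3, at 41.7 CPM, with counts in 24 of 112 cells.

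Mmp13, the main fibrillar collagenase of cartilage, was counted in 13 of 534 aged and 3 of 204 young stromal cells. In the Postn-rich class its level was 327 CPM in aged and 20.1 in young cells (50 and 20 counts, log2 ratio 4.03, 3.25 to 4.85), but 47 of the aged and 19 of the young counts came from 1 cell in each. Both of these cells carried the osteoblast products Bglap (88 and 212 UMIs) and Ibsp (15 and 21 UMIs). After the cells with 10 or more summed counts of Bglap and Ibsp were left out, 0 aged and 1 young Mmp13 counts remained in the Postn-rich class. In all stromal cells 6 aged and 21 young cells met this bone-gene threshold, and 4 and 1 of them had Mmp13. These few cells held 58 of 114 aged and 19 of 23 young Mmp13 counts. Of the 21 young cells 1 was Postn-rich and 2 were Dcn-rich, and the rest were Col2a1-rich or Chad-rich. Those 2 young classes had 1593 and 20 counts of Ibsp but 8 and 0 of Bglap. Most young cells past the threshold thus came from chondrocyte-marker classes, and most had no Mmp13 count.

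Dcn-rich cells had 54 Mmp13 counts in the aged library (18.5 CPM), spread over 9 of 477 cells, and 0 in the 21 young cells. Set against a floor of 3 counts the aged level was at least 2.12-fold higher, and without the 1 aged cell with 30 of the counts, which had 179 counts of Ccl2, the floor lay above the aged level and no fold could be given. The 0 of 21 young cells allows up to 14.3% of cells with a UMI by the floor of 3 (Clopper-Pearson upper limit 16.1%), against 2.04% of the aged cells at equal depth. Detection of Mmp13 in young Dcn-rich cells could thus not be compared at this number of cells. Of the 65 aged Dcn-rich cells with 5 or more counts of tenascin-N (Tnn), 4 (6.15%) had Mmp13, and of the other 412, 5 (1.21%) did.

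**Figure D2:**
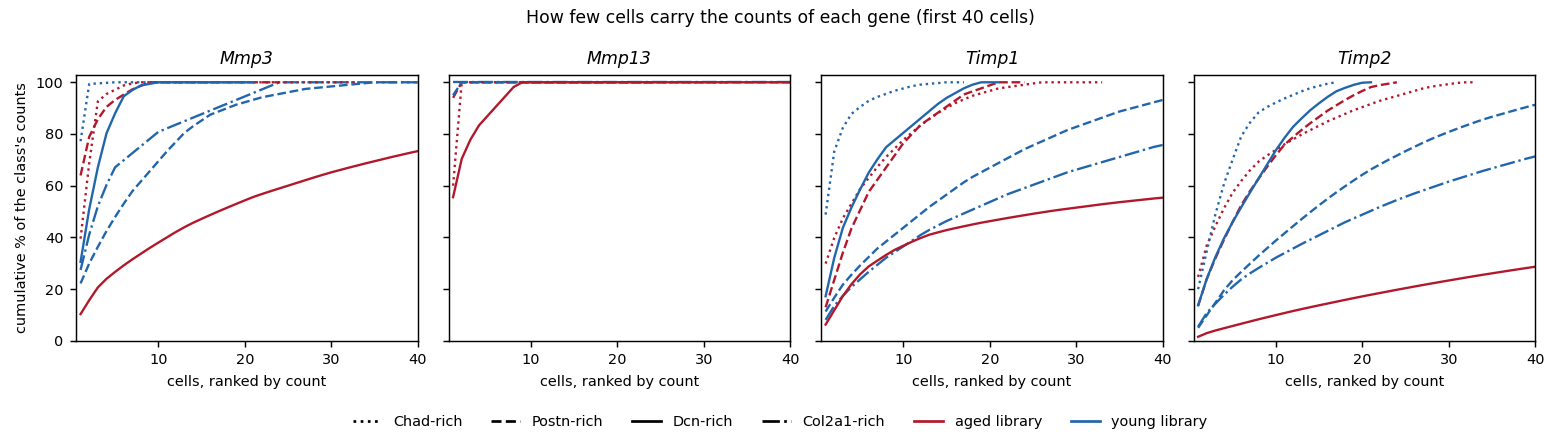
Cumulative share of a class's counts (percent) held by its cells, ranked from the highest count, for Mmp3, Mmp13, Timp1 and Timp2; line style gives the class and colour the library, and the first 40 cells are drawn. For Mmp13 the first cell held 47 of the 50 aged and 19 of the 20 young Postn-rich counts, and for Timp2 in aged Dcn-rich cells the first cell held 1.54%.

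Mmp2, the gelatinase, was found in most Postn-rich and Dcn-rich cells of both libraries. In Postn-rich cells the level was 1130 CPM in aged and 1085 in young cells, with an interval of the log2 ratio from -0.18 to 0.29. Dcn-rich cells followed, with 626 CPM in aged and 871 in young cells (log2 ratio -0.48, -0.65 to -0.30), where 1 young cell held 82 of 298 counts and the ratio without the top cells was -0.14. Young Col2a1-rich cells had 262 CPM and Chad-rich cells 80.4 (aged) and 137 (young), intervals that overlap. Mmp14, its activator at the membrane, had the same 2 classes at the top. Its level was 359 CPM in aged and 259 in young Postn-rich cells (log2 ratio 0.47, 0.03 to 0.90), and 128 and 167 CPM in Dcn-rich cells, where the interval of -0.78 to 0.05 included no change. None of the 33 aged Chad-rich cells had an Mmp14 count, which allows up to 11.5 CPM, while 6 of 17 young ones did, at 45.7 CPM.

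The aggrecanases were scarce in both libraries. Adamts5 had 116 counts in 83 of 477 aged Dcn-rich cells (39.8 CPM) and 4 counts in 4 of 21 young ones (11.7 CPM), for a ratio of 1.77 (0.37 to 3.67). Adamts1 had 86 counts in 45 aged cells (29.5 CPM) and 2 counts in 2 young cells (5.84 CPM), a ratio of 2.34 (0.44 to 5.41). Both were past 2-fold in all 10 alternatives that gave a value, yet each rests on 4 or fewer young counts. The share of cells with a count, without thinning, was 17.4% and 19.0% for Adamts5 and 9.43% and 9.52% for Adamts1, in cells whose young median depth was over 2-fold higher. At 2000 UMIs Adamts5 was seen in 8.16% of aged cells and in 0 of 21 young cells, and at 1000 UMIs in 4.77% and in 1 of 21 (4.76%).

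Adamts4 went the other way at still lower counts. It had 11 counts in aged (3.78 CPM) and 7 in young Dcn-rich cells (20.5 CPM), for a ratio of -2.44 (-3.93 to -0.83) below the minimum of 20 counts, and 0 against 17 counts (17.1 CPM) in Postn-rich cells, where the floor of the shallow aged class, 19.6 CPM, allows no fold. Without the 3 young Dcn-rich cells that had bone or mural counts, the young level was 14.2 CPM with 4 counts. In Postn-rich cells Adamts1 had 5 and 23 counts and Adamts5 5 and 14, and the intervals of both ratios (-1.25 to 1.93 and -0.61 to 2.77) included no change. In Chad-rich cells the 3 aggrecanases had 1 count each in the aged and 0 in the young library.

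Timp3, the matrix-bound inhibitor, was the TIMP that differed most between the libraries in stromal cells. Its level was 149 CPM in aged and 29.2 in young Dcn-rich cells (434 and 10 counts), for a log2 ratio of 2.35 (1.46 to 3.42). Postn-rich cells had 105 and 26.1 CPM (16 and 26 counts), a ratio of 2.00 (1.01 to 2.96). Both stayed past 2-fold in every alternative that gave a value, 10 for Dcn-rich and 11 for Postn-rich cells. At 2000 UMIs per cell Timp3 was detected in 23.1% of aged Dcn-rich cells (95% Clopper-Pearson interval 19.3 to 27.4) and in 1 of 21 young ones (4.76%, 0.12 to 23.8). The counts were dispersed, with 45 aged cells needed for 50% of them. Chad-rich cells had 222 CPM in the aged and 91.4 in the young library, and Col2a1-rich cells 57.1.

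Timp1, a secreted inhibitor, had 865 CPM in aged and 628 in young Dcn-rich cells (log2 ratio 0.46, 0.26 to 0.67). In Postn-rich cells it had 555 and 337 CPM (0.72, 0.36 to 1.07). Both ratios were above 0 and below 2-fold. In Chad-rich cells the values were 808 and 1535 CPM, and without the top cell of each library 595 and 890 CPM. Detection at equal depth was 59.2% of aged and 57.1% of young Dcn-rich cells.

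Timp2 was found in nearly every stromal cell, from 97.0% of aged Chad-rich to 100% of aged Postn-rich cells without thinning. Its level was 3521 and 3122 CPM in aged and young Postn-rich cells (log2 ratio 0.17, 0.04 to 0.31) and 2161 and 1768 CPM in Dcn-rich cells (0.29, 0.17 to 0.41). With the bone and mural cells left out, the Dcn-rich levels were 2169 and 2052 CPM. It had 545 CPM in Col2a1-rich cells, and 1596 (aged) and 2631 (young) in Chad-rich cells. Of the 3 inhibitors it therefore had the smallest ratio between the libraries in both compared stromal classes.

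Counted over the 10 genes, 3 of 8 assessed in Postn-rich cells were at least 2-fold higher in the aged library (Mmp3, Mmp13 and Timp3) and 0 lower, where 9.84% of all 5133 assessed genes were past this fold upwards and 9.39% downwards. The median log2 ratio was 0.61 for the members and 0.10 for all genes. Without the top cell Timp3 stayed past 2-fold and Mmp3 did not, and Mmp13 was left with 3 aged and 1 young counts, too few for a fold. In Dcn-rich cells 4 of 9 were higher (Mmp13, Adamts1, Adamts5 and Timp3) and 0 lower, against 12.4% and 9.68% of all genes, and the medians were 0.79 and -0.09. Only 2 of these 4, Adamts5 and Timp3, had at least 100 counts over both libraries. Scaling by edgeR's TMM or DESeq2's size factors moved all ratios by -0.12 in Postn-rich and by 0.13 or 0.10 in Dcn-rich cells. Because the members were chosen with earlier results of these data known, their counts beside the all-gene shares are a description only.

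**Figure D3:**
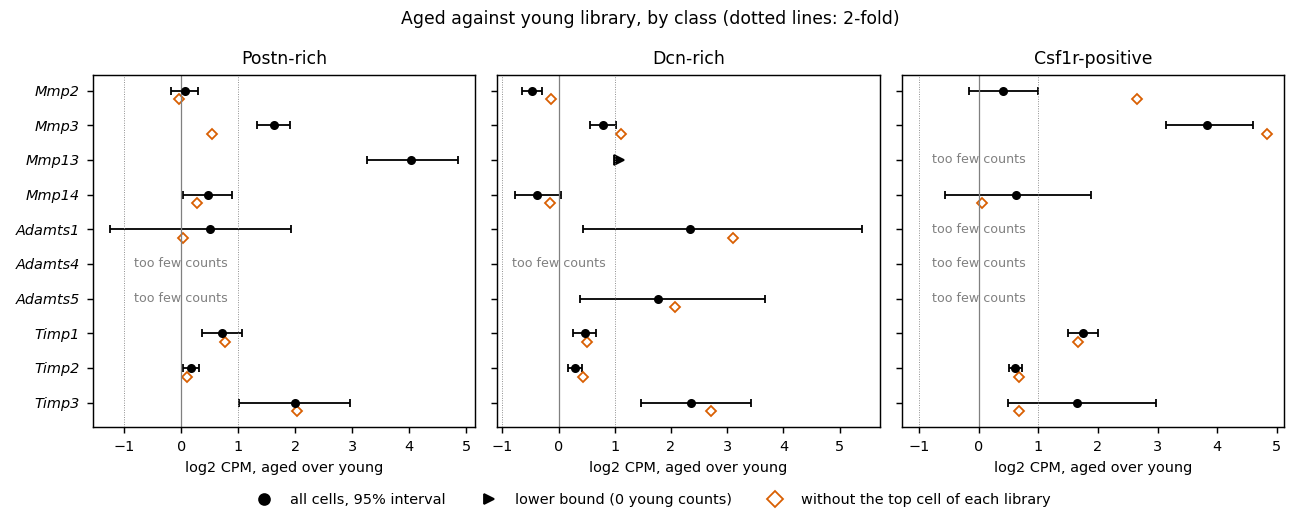
Log2 ratio of CPM, aged over young, for the 10 genes in Postn-rich, Dcn-rich and Csf1r-positive cells; black points with 95% intervals are all cells, the arrowhead is a lower bound, and orange diamonds leave out the cell with most counts of the gene in each library. Timp3 lay at 2.00 and 2.35 in the stromal classes with diamonds close by, while Mmp3 in Postn-rich cells moved from 1.62 to 0.54.

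Other markers moved with the Dcn-rich comparison. The summed level of 3 erythroid markers (Hbb, Hba-a1 and Alas2, the last at 0 in young cells) was 7028 CPM in aged and 155 in young cells, that of 6 neutrophil markers (Ltf at 0 in both) was 1534 and 219 CPM, and the median mitochondrial share was 3.03% and 5.14%. Their part in the members' ratios was not tested. In Postn-rich cells the neutrophil sum went in the opposite direction, 131 CPM in aged and 2789 in young cells. The 3 mural markers had 3.78 and 239.6 CPM in Dcn-rich cells.

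The aged Dcn-rich cells were not uniform in their protease and inhibitor levels. They were divided by 5 or more UMIs of 5 genes picked after the data had been seen, and the subsets share cells, most of all 46 with both Ccl2 and Prg4 and 26 with Prg4 and Tnn. Pi16, a marker of adventitial-type fibroblasts, marked 44 cells with 5803 CPM of Timp2 (5509 to 6109), against 1818 CPM in the other 433. Those cells also had 75.7 CPM of Adamts5, against 36.5, and 422 CPM of Mmp3, against 886, or 163 against 793 without the top cell of each, which held 66 of the 106 counts in the Pi16-positive cells. The 65 Tnn-positive cells had 2152 CPM of Mmp3 (2017 to 2293) against 612 in the rest, with a count in 66.2% and 34.2% of cells, and 907 against 575 CPM of Mmp2. The top cell did not carry this difference, since without it the values were 1890 and 511 CPM.

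Prg4, the gene of the joint lubricant lubricin and a product of lining cells, marked 149 aged Dcn-rich cells. They had 1331 CPM of Timp1 against 532 in the other 328, 44.6 against 18.8 CPM of Adamts1, and lower levels of Timp2 (1313 against 2766) and Mmp3 (529.8 against 1071). The 92 Ccl2-positive cells had 1114 against 784 CPM of Timp1 and 52.1 against 22.3 CPM of Adamts1, in part the same cells. The 45 cells with Sfrp2, a secreted Wnt modulator, had 3462 against 2022 CPM of Timp2. Timp3 lay between 114 and 167 CPM in every marked subset. Median depth was 7211 UMIs in Prg4-positive and 5210 in the other cells, and 5406 and 5847 for Pi16.

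**Figure D4:**
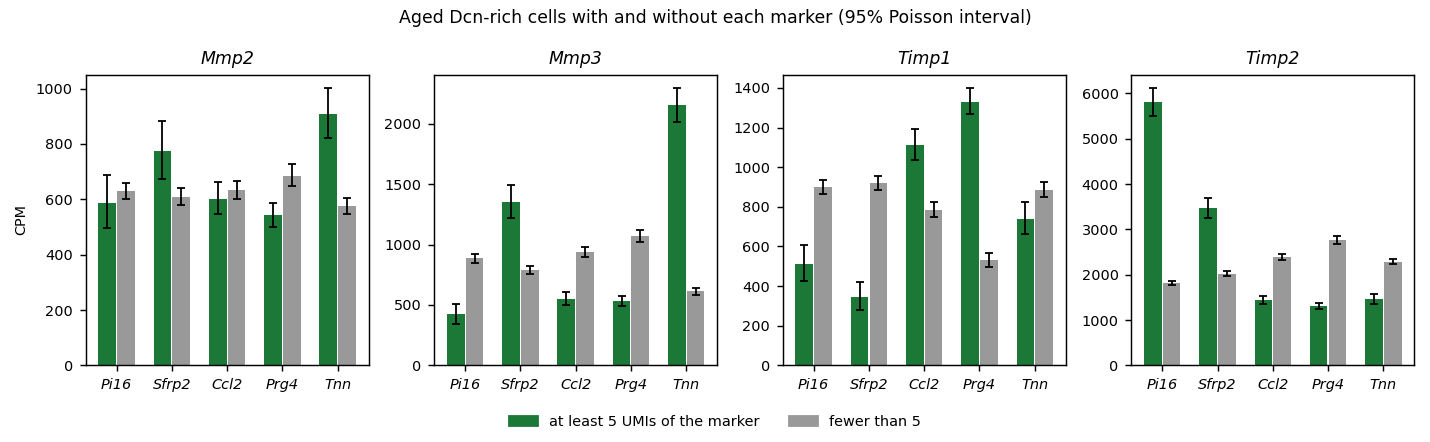
Levels of Mmp2, Mmp3, Timp1 and Timp2 (CPM, linear axis from 0) in aged Dcn-rich cells with (green) and without (grey) at least 5 UMIs of each marker on the horizontal axis; bars are class sums with 95% Poisson intervals. Timp2 was highest with Pi16 (5803 CPM), Mmp3 with Tnn (2152 CPM) and Timp1 with Prg4 (1331 CPM).

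Cells with and without Mmp3 had similar shares with a TIMP. At 2000 UMIs, Timp1 was found in 61.9% of the 134 aged Dcn-rich cells with Mmp3 and in 58.0% of the 307 without, and Timp3 in 21.6% and 23.8%, with overlapping intervals for both. Timp3 was found in 27.6% of 261 cells with Timp1 and in 16.7% of 180 without, with intervals of 22.3 to 33.4 and 11.5 to 22.9 that overlap slightly. Adamts1 was found in 6.13% and 1.67% of the same cells (16 and 3 cells), again with overlapping intervals.

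In Csf1r-positive myeloid cells Timp1 and Timp2 had higher levels than in B lineage cells in both libraries, also with cells holding stromal counts set aside. The Csf1r-positive cells, 590 aged and 483 young barcodes without the stromal gates, had 6 macrophage or monocyte markers at a summed 2118 and 1677 CPM, beside 6 neutrophil markers at 2679 and 9641 CPM, and 8.14% and 21.9% of them had 2 or more counts of Cd79b. What these cells add to the ratios was not tested. Timp1 had 89.95 CPM in aged (722 counts) and 26.8 in young cells (174 counts), for a ratio of 1.75 (1.504 to 1.99). A Timp1 count was found in 35.3% and 18.0% of cells, and at 2000 UMIs in 10.4% and 4.12%, against 0.09% and 0.21% of B lineage cells at that depth. Timp2 had 225 and 147 CPM (0.62, 0.50 to 0.73), with a count in 51.2% and 50.1% of cells and, at 2000 UMIs, in 29.3% and 24.3%, against 0.82% and 0.43% of B lineage cells. Both ratios kept their direction in all 13 alternatives, and Timp1 stayed past 2-fold in each.

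Of 6 members assessed in Csf1r-positive cells 3 were at least 2-fold higher in the aged library (Mmp3, Timp1 and Timp3) and 0 lower, against 5.18% and 9.04% of all genes. For Mmp3 this was 39.4 and 2.78 CPM, but 311 of its 316 aged counts lay in 17 cells that also had 5 or more summed counts of Dcn, Lum, Col3a1 and Pdgfra. All 31 aged Timp3 counts lay in those cells too. Outside them Mmp3 had 0.64 CPM in aged and 0.78 in young cells, from 5 counts in each, and Timp1 had 66.2 and 26.9 CPM. The Mmp3 level of B lineage cells was 7.11 CPM in aged cells, or 1.29 without the top cell, and 1.24 in young cells. The young B lineage interval, 0.40 to 2.88 CPM, included 0.78. With the cells holding stromal counts left out, Timp1 was the only member at least 2-fold higher in the aged library. Mmp2, Mmp14 and Timp3 were lower there, with log2 ratios of -2.09, -1.28 and -1.50, from at most 8 counts of each gene in either library.

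The gate of at least 1 S100a8 count, without Csf1r, took many cells of the B lineage. It took 2465 aged and 6982 young barcodes, 40.5% and 79.6% of all cells, and 46.9% and 78.6% of them had at least 2 counts of the B lineage gene Cd79b. The median log2 ratio over all assessed genes was -0.67 in this gate, and other scalings moved ratios by 0.65 or 0.67. Of 9 members 5 were at least 2-fold higher (Mmp13, Adamts1, Adamts4, Timp1 and Timp3) and 1 lower (Mmp3), against 6.17% and 26.7% of all genes. Between 33.3% and 100% of the aged counts of these 6 genes lay in 37 barcodes with stromal counts. For Mmp3, the 1 lower gene, 342 of 363 young counts lay in 31 such barcodes, and outside them it had 0.67 CPM in aged and 0.45 in young cells. Adamts4 had 20 of its 30 aged counts outside them, in 6 cells.

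Among barcodes with at least 10 S100a8 counts, 864 aged and 1196 young, Timp2 was the member found in the largest share. It had 307 CPM in aged and 159 in young cells and was found in 52.3% and 44.4% of them. Mmp3 was found in 5 and 6 of these barcodes, and Adamts4 in 0 and 2.

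Genes of the same pathway outside the family differed by list. These lists and those below were also chosen with earlier results of these data known, so their counts are descriptive. Of 17 other MMP genes in the files 6 were assessed in Dcn-rich cells, and 3 were at least 2-fold higher and 1 lower, against 12.4% and 9.68% of all genes. The 3 higher genes, Mmp8, Mmp9 and Mmp11, had 3, 1 and 1 young counts and intervals that included no change. Mmp8, the neutrophil collagenase, had 24.4 and 8.77 CPM (log2 ratio 1.48, -0.13 to 3.79). In Postn-rich cells 0 of 4 were higher and 3 lower, against 9.84% and 9.39% of all genes. Among the lower ones was Mmp23, at 52.3 and 229 CPM (-2.13, -3.36 to -1.13). Mmp8 and Mmp27, also lower there, had 1 and 8 aged counts and intervals that included no change. Of 20 other ADAMTS and ADAMTS-like genes, 0 of 5 assessed were higher and 2 lower in Dcn-rich cells, and 1 higher and 1 lower of 5 in Postn-rich cells, where Adamts12 had 13.1 and 74.2 CPM (-2.51) from 2 aged counts. None of the 4 ADAM genes assessed in Dcn-rich cells was higher and 2 were lower, with Adam17, the main sheddase of TNF, at 14.1 and 35.1 CPM (-1.32, -2.27 to -0.25).

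Other inhibitors and clearance factors were led by Tfpi2, a Kunitz-type serine protease inhibitor, with 136 CPM in aged and 2.92 in young Dcn-rich cells, the latter from 1 count (log2 ratio 5.54, 3.05 to 10.84). Sdc4, a syndecan that takes part in Adamts5 activation, had 401 and 76.0 CPM (2.40, 1.84 to 3.02), and Reck, a membrane-anchored MMP inhibitor, 129 and 61.4 CPM (1.08, 0.44 to 1.79). In all, 4 of 10 genes of this list were higher and 1 lower, against 12.4% and 9.68% of all genes. Serpinb1a, 1 of the 4, had 43 aged and 2 young counts and an interval (-0.60 to 4.43) that included no change. Of 9 cathepsin-list genes 0 were higher and 1 lower, near the all-gene share.

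The substrates of these enzymes showed a split between collagens and decorin. Of 13 assessed in Dcn-rich cells 1 was higher and 4 lower, beside the same all-gene shares. Col1a1 had 2400 CPM in aged and 32740 in young cells (log2 ratio -3.77), Col3a1 3917 and 16874 CPM (-2.11), and Dcn 18710 and 5404 CPM (1.79). Dcn defines the class, so its own ratio there describes the cells chosen. In classes not gated on Dcn it also stood higher in the aged library. It had 18832 and 8758 CPM in Postn-rich cells (1.10) and 18577 and 6459 CPM in Chad-rich cells. In Postn-rich cells 4 of 12 were higher and 2 lower, against 9.84% and 9.39% of all genes. Col1a1 was at -3.26 there and Comp, a cartilage matrix protein, at 1.11.

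Of 20 assessed genes known to induce or regulate the proteases, 11 were at least 2-fold higher in aged Dcn-rich cells and 1 was lower, against 12.4% and 9.68% of all genes. The median log2 ratio was 1.24 against -0.09 for all genes. Of the 11, Il6st, Osmr, Runx2 and Hdac4 had 1 or 2 young counts and intervals that included no change, and Epas1, a hypoxia-inducible factor, was the gene past 2-fold downwards (-1.32). Nfkbia, the NF-kappaB target and inhibitor, had 1970 and 178 CPM (3.47, 3.10 to 3.86). Il1b, a cytokine that induces Mmp3 and Mmp13 in joint cells, had 44.7 and 8.77 CPM (2.35), from 3 young counts. Its levels were 1907 and 198 CPM in Csf1r-positive and 606 and 73.6 CPM in S100a8-positive cells, and the neutrophil markers of the Dcn-rich cells differed in the same direction, as given above. What leukocyte RNA adds to the Il1b ratio was not tested. Of 12 immediate early genes 6 were higher and 0 lower, with the same all-gene shares, among them Ier3 (4.00) and Nr4a1 (3.08).

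Values of the AP-1 subunits Fos, Fosb, Fosl1, Jun, Junb and Jund, picked after they were seen, differed in direction. In Dcn-rich cells Fos had 3663 and 2516 CPM (log2 ratio 0.54) and Junb 4367 and 2464 (0.83). Jun had 2783 and 2925 CPM (-0.07), Fosb 1334 and 1914 (-0.52) and Jund 1779 and 2522 (-0.50). Fosl1 had 45 aged counts (15.5 CPM) and 0 young ones, at least 1.76-fold higher. Of related genes in the list, Atf3 (1.60) and Maff (3.32) were past 2-fold. Their part in the ratios of Mmp3 and Mmp13 was not tested.

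The genes whose levels over 12 groups (a library and a class) were most like those of each member are a description of shared distribution. Groups had at least 20 cells, which leaves out young Chad-rich cells, and they include stromal and leukocyte classes, so r also reflects the gap between those. By Pearson's r of log2(CPM + 10) among 4488 genes, Mmp2 was most like Fstl1 (r = 0.997), Mmp3 like Gpx3 (0.986) and Dcn (0.983), Mmp14 like Afap1 (0.992), Adamts5 like Cygb (0.990), Timp1 like Bag3 (0.981), Timp2 like the cathepsins Ctsl (0.986) and Ctsf (0.985), and Timp3 like Clu (0.984). Mmp13 reached 0.913 (Tent4a), with its Postn-rich level from 1 cell in each library. Within the family the closest pairs were Timp1 with Timp2 (0.966), Adamts1 with Adamts5 (0.963) and Mmp2 with Mmp14 (0.953). Adamts1 and Adamts5 reached at most 32.7 and 39.8 CPM in these groups, not far above the 10 added. All groups of a library share its depth and free RNA, and no p is given.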

How the data were processed

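Single-cell RNA was measured in 1 aged and 1 young rat meniscus library. The deposited matrices hold UMI counts, whole numbers per gene and barcode made by the authors with Cell Ranger 6.1.1 (per the submitters' processing notes). The genome build is not given in the sources used here. The libraries list 8422 and 9914 barcodes with 47228750 and 65051972 UMIs. Barcodes under 500 detected genes or above 20% mitochondrial UMIs were dropped, which left 6085 and 8773, with median depths of 3686 and 3846 UMIs.

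Cells were gated by the raw counts given in the text, with Csf1r or S100a8 at 1 UMI or more for myeloid cells. No doublet caller was run; an alternative left out the 8% of cells with most UMIs in each library. Counts were summed per class, with Poisson, conditional binomial or Clopper-Pearson 95% intervals (scipy 1.17.1). They cover counting error only. A count of 0 was set against a floor of 3 counts per library and class. Detection was compared after thinning to 2000 UMIs. Scaling alternatives used edgeR 4.0.16 and DESeq2 1.42.0 and no count model was fitted.

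The members and gene lists were chosen with earlier results of these data known. From each list up to 4 genes per stromal class with the largest ratio and at least 50 counts could be named, a selection of which is printed; for likeness, up to 3 genes per member. Fosb, Fos, Fosl1, Jun, Junb, Jund, Mmp9, Mmp11, Il6st, Osmr, Runx2, Hdac4, Epas1 and the subset markers Pi16, Sfrp2, Ccl2, Prg4 and Tnn fall outside this rule. The ratio was also run on Poisson counts simulated at the Dcn-rich totals. These hold no extra spread between cells, so they cannot show how the intervals perform where few cells carry the counts. Promoter sequences are RefSeq's (GRCr8).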

Additional observations from a re-analysis of the deposited data

How the results depend on the processing

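Of 368 alternative values of the members' ratios, 287 stayed within the counting interval of the value given, 76 moved beyond it and 5 turned a ratio of 2-fold or more around. Smaller ratios also changed sign, among them Mmp3 in Dcn-rich cells (-0.19 with per-cell means). Of 344 list medians 78 moved by more than 0.25 and 1 reversed. The number of members at least 2-fold higher in Postn-rich cells went from 3 to 1 without the top cell and to 1 at 100 or more counts, and in Dcn-rich cells from 4 to 2 at 100 or more counts. The number lower in Dcn-rich cells went from 0 to 1 with more than 3 counts in 1 library as the minimum (Adamts4) and to 1 with Ptprc ignored. In Csf1r-positive cells 3 higher became 5 with per-cell means, a fold of 1.5 or the stricter gate, and 1 with Ptprc ignored or with cells holding stromal counts left out. In S100a8-positive barcodes 5 higher became 2 at 100 or more counts and 1 with the stricter gate. The 1 lower there became 0 with TMM, DESeq2's size factors, per-cell means, doubled thresholds, Ptprc ignored or the 8% deepest cells left out, and 2 at a fold of 1.5.

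In Csf1r-positive cells Timp3 reversed to -0.71 with Ptprc ignored and to -1.50 without cells holding stromal counts. The latter is a bound from 0 aged and 7 young counts. Mmp3 there reversed to -0.28 without those cells, from 5 counts in each library. Mmp3 in S100a8-positive barcodes reversed to 0.57, both with Ptprc ignored and without cells holding stromal counts. The median of the other MMP genes in Csf1r-positive cells reversed to 1.21 with the stricter gate. The cause was not tested. The settings on stromal counts, bone and mural genes and subset markers were chosen after seeing the data.

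Too few cells were left for a ratio in Postn-rich cells with doubled thresholds (12 aged cells) and in Dcn-rich cells without leukocyte counts (17 young) or without the deepest 8% (14 young). The 21 young Dcn-rich and 24 aged Postn-rich cells, with 342184 and 153090 UMIs, limit the comparisons of their classes. No paired analysis was possible because there is 1 library per age, and none could be left out.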
